A study of Mus musculus with 6 samples.

Results

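Ddit4, the gene for the mTORC1 inhibitor REDD1, was followed in mouse skeletal muscle with and without a meal. It is 1 gene, read from 1 of the 41345 features of the array table and from 1 of the 134 features to which the authors' deposited list gives a gene symbol. That list holds features that differed between refed and fasted arrays, so Ddit4 was chosen by its values in this same contrast, and its levels are given as a description with no test. The muscle was tibialis anterior, a fast-twitch muscle at the front of the shin, from male C57Bl/6 mice aged 18 weeks, with chow and water freely available until the experiment. All mice lost access to food at 1800 hr. In the fasted group (3 arrays, replicates 1, 3 and 5) the fast ran on until the muscle was taken. In the refed group (3 arrays, replicates 7, 9 and 11) the mice ate for 30 minutes at about 0800 hr and then went without food for 4 hr, and both groups were killed at the same time of day. The groups carry no gene deletion or drug in the labels. The labels do not say whether each array came from its own mouse, so the spread given here is that between arrays.

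REDD1 lowers the activity of mTORC1, the kinase complex that drives protein synthesis and restrains autophagy when insulin and amino acids are plentiful. It acts through the TSC1-TSC2 complex, which turns off Rheb, the small GTPase that activates mTORC1. In muscle its gene is known to be induced by fasting, by glucocorticoids and by energy or oxygen shortage, and the protein is short-lived. The comparison asks how its transcript stood 4 hr after a meal in muscle that had fasted overnight.

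The gene lies on chromosome 10, band B3 in the authors' list, and at chr10:59949675-59951770 on the minus strand of GRCm38.p6 in RefSeq (NM_029083). The 250 bases before its start are shown because they are the stretch nearest the gene in which binding sites of the known inducers could be looked for. They are set beside those of Depp1, a target of the FoxO factors. Among the candidate genes described below, Depp1 was the closest to Ddit4 by the main measure of likeness, though not by the other measures tried. Both are RefSeq sequences of GRCm38.p6, 5′ to 3′ on the gene's own strand, with the letters of any searched motif in capitals.
Ddit4, chr10:59951771-59952020, minus strand: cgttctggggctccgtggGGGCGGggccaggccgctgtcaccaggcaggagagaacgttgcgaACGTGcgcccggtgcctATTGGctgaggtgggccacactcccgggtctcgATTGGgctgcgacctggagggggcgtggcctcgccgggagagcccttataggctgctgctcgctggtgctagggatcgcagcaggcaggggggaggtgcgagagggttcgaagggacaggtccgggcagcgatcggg
Depp1, chr6:116650434-116650683, plus strand: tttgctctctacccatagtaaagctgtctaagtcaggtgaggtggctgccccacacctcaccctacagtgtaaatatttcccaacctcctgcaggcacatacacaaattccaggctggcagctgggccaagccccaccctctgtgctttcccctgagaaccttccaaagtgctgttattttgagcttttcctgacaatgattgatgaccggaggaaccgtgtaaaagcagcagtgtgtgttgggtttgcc

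The Ddit4 stretch was rich in G and C, which made up 70.0% of its bases against a median of 52.4% over 32851 RefSeq promoters of the same length, and 50.8% in that of Depp1. It held the Sp1 box GGGCGG once, from 232 to 227 bases before the start, and 32.7% of all promoters hold that box on either strand. The CCAAT box stood there 2 times, both on the opposite strand, from 170 to 166 and from 137 to 133 bases before the start (33.8% of all promoters). The letters ACGTG, the only form of the hypoxia element core that was searched, occurred once, from 187 to 183 bases before the start (16.6%).

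The glucocorticoid receptor core site AGAACA (16.1% of all promoters), the FoxO site GTAAACA (3.17%), the E-box CACGTG (6.02%), the cyclic AMP element core TGACG (17.8%), the TATA box TATAAA (12.4%) and the C/EBP-ATF element TGATGNAA (3.45%) were not among these letters. An E-box also counts as the hypoxia core on both strands. The Depp1 stretch held none of the 9 motifs as written here, and variant forms of them, the FoxO site included, were not searched. Of the other likest genes introduced below, Arrdc2 had 3 CCAAT boxes and 4 Sp1 boxes, 3 of the latter sharing end bases, and Gadd45g had 1 CCAAT box, 1 TATA box, 1 E-box and 1 C/EBP-ATF element, while Ms4a4a had none of the 9. The promoter table held 6 of the 7 genes, all but Cebpd, and lists 3 starts for Arrdc3. Over these, Arrdc3 had up to 1 hypoxia core, 1 cyclic AMP element core, 1 CCAAT box and 2 Sp1 boxes. A match is a run of letters and not a measured binding site, and a motif missing from this window may stand elsewhere.

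Ddit4 signal was higher on every fasted array than on any refed array. In fasted muscle it was 8.87 on replicate 1, 7.71 on replicate 3 and 7.99 on replicate 5 (log2 signal). In refed muscle it was 6.57 on replicate 7, 6.24 on replicate 9 and 7.05 on replicate 11. The groups did not overlap, and the lowest fasted array stood 0.65 above the highest refed array on the log2 scale. Fasted replicate 1 was the highest of the 6 and refed replicate 9 the lowest.

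The mean was 8.19 ± 0.61 in fasted and 6.62 ± 0.41 after the meal (SD, n = 3; log2 signal), which makes a log2 difference of -1.57 and a level 2.97-fold lower. The difference was 3.03 times the pooled SD of 0.52, in the downward direction. Groups that do not overlap were found for 9.55% of all features, and for 5.02% in the downward direction. Since the rule used this contrast, nothing is read from Ddit4 being among them. In a piece of whole muscle, fewer cells of a type and less RNA per cell cannot be told apart.

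**Figure D1:**
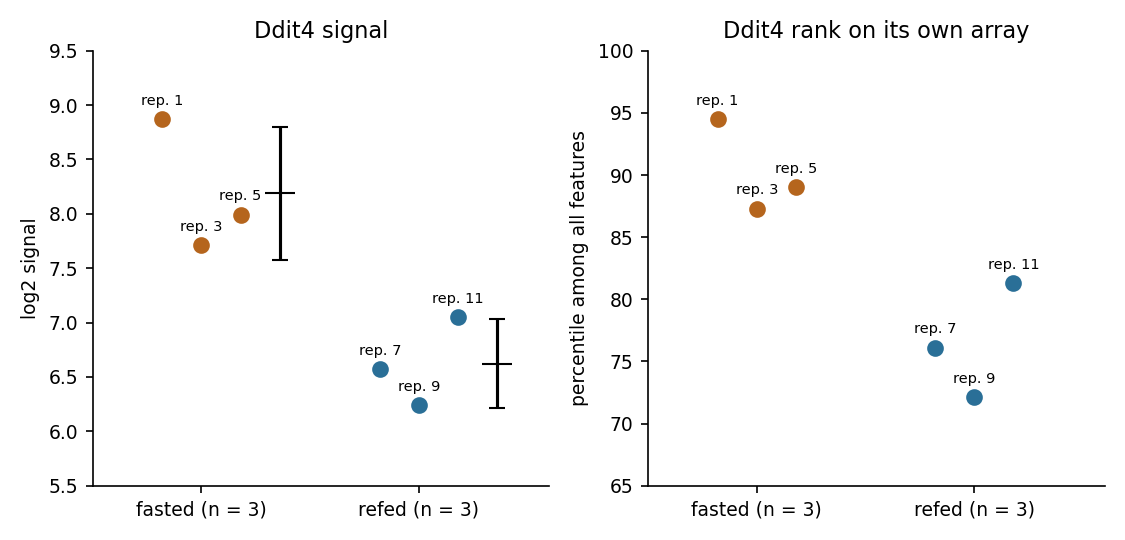
Left, Ddit4 log2 signal on each array, with the replicate number beside each point and the group mean ± SD (n = 3) as a bar; right, the percentile of that signal among all 41345 features of the same array. All 3 fasted points lie above all 3 refed points in both panels, and fasted replicate 1 stands above the other fasted arrays.

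On each array Ddit4 can also be placed by its rank, which does not depend on the scale of the array. It stood at percentile 94.5, 87.3 and 89.0 of all features on fasted replicates 1, 3 and 5. After the meal it stood at percentile 76.1, 72.1 and 81.3 on replicates 7, 9 and 11. The ranks were thus apart as well. This is not a separate result, since column medians were 5.02 to 5.06 and the log2 values were already apart.

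The size of the difference varied with the arrays set against each other. Over the 9 pairs of a refed and a fasted array it ran from 1.57-fold lower (refed replicate 11 against fasted replicate 3) to 6.21-fold lower (refed replicate 9 against fasted replicate 1). The 3 pairs with fasted replicate 1 were 4.93-fold, 6.21-fold and 3.53-fold lower. Without that array the log2 difference was -1.23, and without refed replicate 9 it was -1.38. Leaving out any 1 array kept it between -1.81 and -1.23.

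Ddit4 varied more between arrays of one group than most features of its brightness. The 3689 features within 0.5 of its mean level of 7.41 (log2 signal) had a median pooled within-group SD of 0.15, against 0.52 for Ddit4. Of these, 57 including Ddit4, or 1.55%, had an SD as large. The fasted arrays spanned 1.17 and the refed arrays 0.81 on the log2 scale. The list that supplied Ddit4 also carries p-values, which weigh a difference against this spread, so the SD is a description too.

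Its difference was also far from the bulk of the table. The choice of Ddit4 by this same contrast helps to fix that, so the counts here are a description. In the same window of brightness the median absolute difference was 0.09 and the 99th percentile 0.65 on the log2 scale, and 3 features including Ddit4 differed by as much as it did. Across all features, a total of 33 including Ddit4 differed at least as far in either direction, 29 of them lower and 4 higher in refed muscle. Among the 6276 features at or above the Ddit4 level there were 11, all 11 lower in refed muscle, and Ddit4 and Depp1 were the 2 with a gene name. The rank rests in part on single arrays, since leaving out fasted replicate 1 raised the count of 33 to 169, and leaving out refed replicate 9 raised it to 94.

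The test across all features gives the background for these values. By limma with Benjamini-Hochberg adjustment, 0 of 41345 features passed an adjusted p under 0.05, or 0% of the table. At an unadjusted p under 0.05 limma found 1151 features lower (2.78%) and 858 higher (2.08%), 4.86% together, and an ordinary linear model found 967 and 884 and also 0 at the adjusted threshold.

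**Figure D2:**
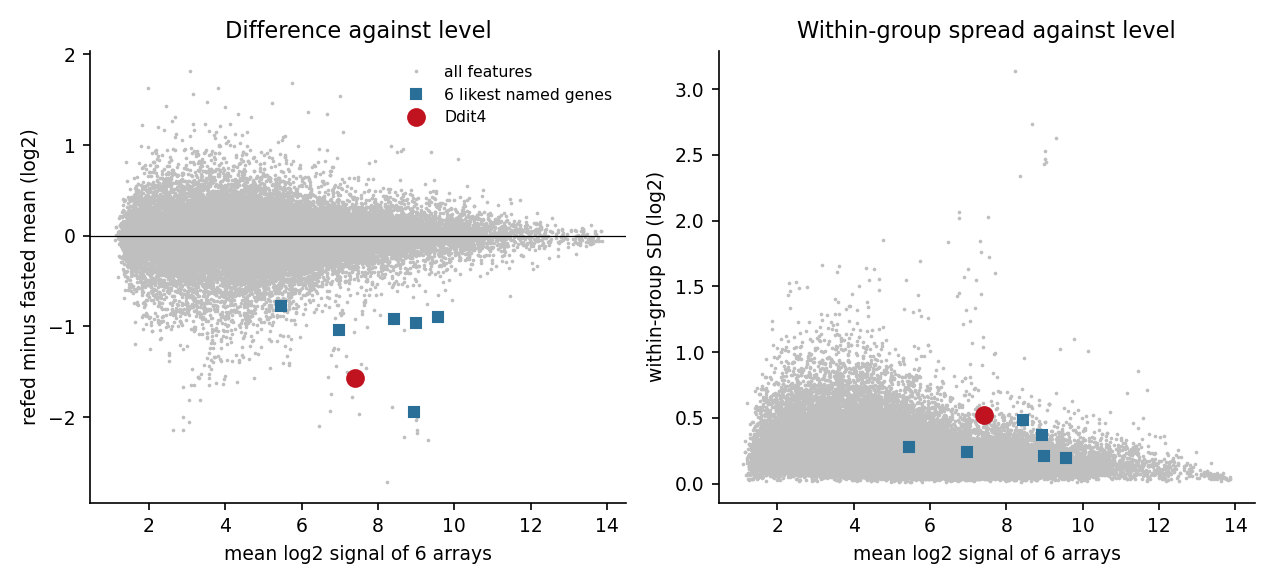
Each grey point is 1 of 41345 features, placed by its mean log2 signal over 6 arrays (horizontal) against the refed minus fasted difference in log2 signal (left) and the pooled within-group SD (right). Ddit4 (red) lies at -1.57 and at an SD of 0.52, toward the edge of features of its level in both panels, and the 6 named genes most like it are squares.

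Likeness to the Ddit4 profile was measured as the root mean square difference over the 6 arrays, after each gene was centred on its own mean, so that 0 is an identical profile and a flat profile is at 0.89. The candidates were 43 other genes with a usable name. All 43 come from the authors' list for this same contrast, so a difference in one direction or the other is built into each of them. Among all features the median distance from Ddit4 was 0.91. Among the other features with a symbol, which share the selection by that list, it was 0.72. A total of 5 features outside the candidates were closer to Ddit4 than any candidate.

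Depp1, whose product is linked to autophagy, was the closest candidate at 0.36 by this measure. It was not among the nearest 6 when profiles were scaled to equal spread, when deviations from the group means alone were compared, or without fasted replicate 1, and it was in place 4 without refed replicate 9. Its log2 signal was 10.33, 9.79 and 9.62 on fasted replicates 1, 3 and 5, and 7.56, 8.05 and 8.28 on refed replicates 7, 9 and 11. Like Ddit4 it was highest on fasted replicate 1, but its lowest array was refed replicate 7. Its difference of -1.95 (3.85-fold lower) was larger than that of Ddit4.

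Cebpd, a transcription factor of the C/EBP family that glucocorticoids and inflammation induce, came next at a distance of 0.37. Its log2 signal was 7.72, 7.24 and 7.53 on the fasted arrays and 6.55, 6.18 and 6.64 on the refed arrays, in the order of replicates given above. The 6 arrays stood in the same order for Cebpd as for Ddit4, although its difference of -1.04 was smaller.

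The alpha-arrestins Arrdc2 and Arrdc3, adaptors that bring ubiquitin ligases to membrane proteins, followed at 0.40 and 0.44. Arrdc2 signal was 9.77, 9.21 and 9.47 on the fasted and 8.48, 8.43 and 8.63 on the refed arrays, again in the Ddit4 order. Arrdc3 was 1.87-fold lower after the meal, at 9.12 ± 0.15 against 10.02 ± 0.23 (log2 signal, SD, n = 3). The full Ddit4 order of the arrays was thus found in 2 of the 6 likest genes, Cebpd and Arrdc2, and in 0.14% of all features. The genes were chosen for likeness, and from a list of features that differ between these groups, so a shared order is partly built in. The share over all features is therefore no like reference.

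Gadd45g, a stress-response gene of growth arrest, stood at 0.43. Its fasted arrays, like those of Ddit4, spread widely, at 9.45, 8.18 and 9.04, and its refed arrays lay at 8.18, 7.78 and 7.96 (log2 signal). Fasted replicate 3 and refed replicate 7 were equal to the second decimal, so its groups barely separated. Ms4a4a, which codes for a membrane protein known from macrophages, was last of the 6 at 0.47, with 5.85 ± 0.34 in fasted and 5.07 ± 0.21 in refed muscle (log2 signal, SD, n = 3).

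**Figure D3:**
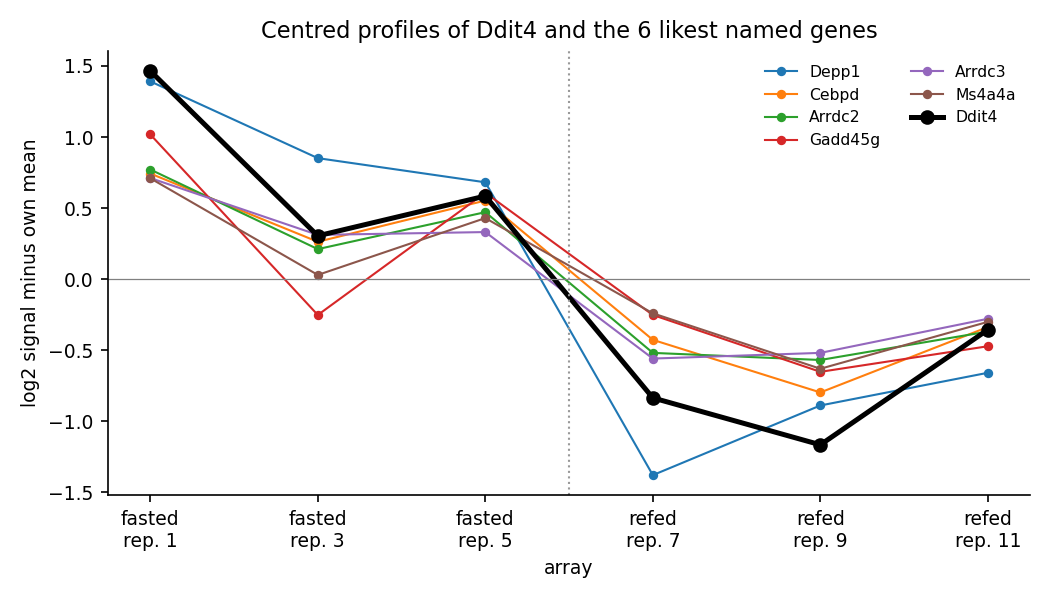
Log2 signal of Ddit4 (thick black line) and of the 6 named genes most like it on each array, after subtracting each gene's own mean of the 6 arrays; the dotted line separates fasted from refed arrays and the lines join replicates only to guide the eye. All 7 profiles are highest on fasted replicate 1, and Ddit4 and Depp1 have the widest swing.

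The way genes moved within a group is a measure that does not contain the difference between groups. Fasted replicate 1 was the highest fasted array for all 6 likest genes, as it was for 35.4% of all features. Refed replicate 9 was the lowest refed array for 4 of the 6, as it was for 32.1% of all features. On deviations from the group means alone, where a flat profile is at 0.42 from Ddit4 and the median feature at 0.45, the 6 genes lay between 0.25 (Ms4a4a) and 0.31 (Depp1), although the main measure that chose them holds these deviations too.

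Trim63, the muscle ubiquitin ligase MuRF1, was not among the 6 and lay at 0.29 within groups, a distance that 2.65% of all features matched or went below. Trim63 was not among the nearest 6 candidates by this distance either, although candidates not named here were. Its log2 signal was 12.03, 11.75 and 11.60 on fasted replicates 1, 3 and 5. On refed replicates 7, 9 and 11 it was 11.11, 10.96 and 11.33. The refed arrays thus stood in the Ddit4 order and the fasted arrays did not, as Ddit4 was lowest on fasted replicate 3. Other listed genes lay near the median feature or farther from Ddit4 within groups. The within-group distance was 0.46 for Angptl4, an inhibitor of lipoprotein lipase, 0.50 for Chac1, a glutathione-degrading enzyme, and 0.59 for Pfkfb3, a regulator of glycolysis. Gabarapl1, an autophagosome protein, was at 0.43, close to the flat profile.

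The other genes around REDD1 could be followed only as far as features carry names. Of the 50 genes of the mTORC1 list, which holds its TSC partners, Rheb, the subunits, the amino acid sensors and the kinase substrates, Ddit4 was the 1 with a named feature, and the other 49 are not analysed here. Of 31 genes of the glucocorticoid response 6 were named, of 28 FoxO and atrophy genes 4, of 26 genes of the ATF4 response 2, and of 33 genes of the hypoxia and p53 responses 2, each count including Ddit4. These named members make up 10 distinct genes of the 145 in the 5 lists. By limma 0 of them passed in either direction at an adjusted p under 0.05, as did 0% of all features.

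All 10 had lower values in refed muscle. Their entry through the authors' list helps to fix both this direction and the size of the differences. The median difference of the named members, Ddit4 included, was -0.94 for the glucocorticoid list and -1.14 for the FoxO list. It was -1.19 for the ATF4 list, from Ddit4 and Chac1 (-0.82) alone. For the hypoxia and p53 list it was -1.31, from Ddit4 and Pfkfb3 (-1.04) alone. In the mTORC1 list Ddit4 stands alone at -1.57. These medians thus largely restate Ddit4, and nothing is read from their order. The median over all features was 0.001, which is no like reference for genes listed for differing. Among these named members alone, Ddit4 had the most negative difference in the glucocorticoid, ATF4 and hypoxia and p53 lists, and Depp1 in the FoxO list, with the larger unnamed share of each list not analysed here.

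Transcripts of red blood cells were lower on the refed arrays as well. Of 9 erythroid markers 2 were named, Alas2, the erythroid enzyme of haem synthesis, and the globin Hbb-bt. The mean of both was 7.16, 7.61 and 6.70 on fasted replicates 1, 3 and 5, and 6.50, 5.91 and 6.63 on refed replicates 7, 9 and 11 (log2 signal). Their summed linear signal ranged from 214 to 399 in fasted and from 124 to 201 in refed muscle, and neither was at 0.

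In refed muscle the arrays stood in the same order for these transcripts and for Ddit4. In fasted muscle they did not, as fasted replicate 3 was highest for the red cell transcripts and lowest for Ddit4. With the mean of Alas2 and Hbb-bt as a covariate the Ddit4 difference was -1.39 (SE 0.74), against -1.57 (SE 0.42) without it (log2 scale). Alas2 and Hbb-bt were themselves listed for differing between the groups, which ties the covariate to the meal by selection.

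Of the 11 muscle markers Myod1, the myogenic transcription factor, was the 1 with a named feature, at 7.06 ± 0.25 in fasted and 7.70 ± 0.14 in refed muscle (log2 signal, SD, n = 3). Myod1 too is named only through the authors' list for this contrast, so a difference between the groups is built in. With 1 named muscle marker, the tissue label was checked no further here. The other 7 marker lists, from adipocytes to Schwann cells, had no named feature. The sources used here give no scan date or batch for the arrays, and a batch was not tested.

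**Figure D4:**
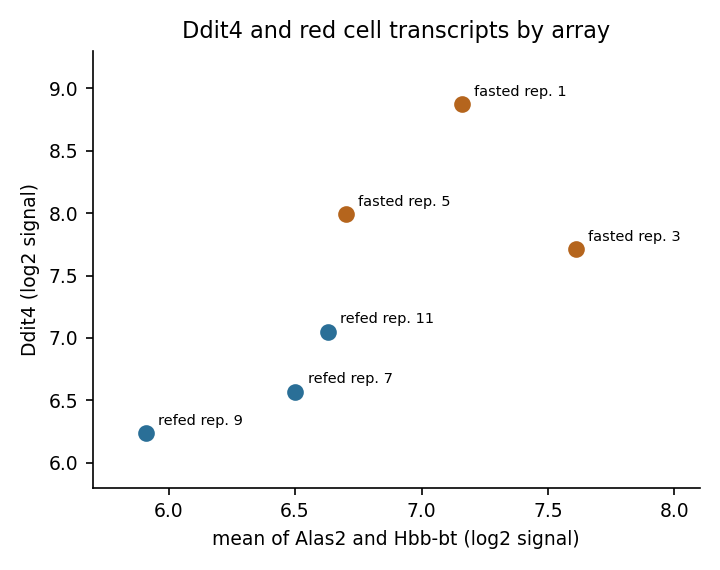
Ddit4 log2 signal (vertical) against the mean log2 signal of Alas2 and Hbb-bt (horizontal), 1 point per array, fasted in brown and refed in blue. Fasted replicate 1 has the highest Ddit4 at 8.87 and a red cell mean of 7.16, while fasted replicate 3 has the highest red cell mean at 7.61 and a Ddit4 of 7.71.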

How the data were processed

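RNA from about 25 mg of muscle was labelled with biotin, 300 ng per sample, by a whole-transcript method, per the labels' protocols. The authors deposited log2 values of 41345 features on 6 arrays. Partek is named, without version, per the submitters' processing notes; the sources used here do not give the background correction, normalization or build. Column medians were 5.02 to 5.06, and Pearson's r between arrays across features, which are not independent replicates, was 0.978 to 0.983. The log2 scale was checked against the authors' deposited ratio over the 469 list entries other than Ddit4 (largest gap 1.81e-05). From that list only symbols, identifiers and the chromosome and band in its gene annotation were otherwise used; 73 of its 134 named entries matched RefSeq of GRCm38.p6 by accession, which renamed 8430408G22Rik to Depp1. All features were fitted with limma 3.58.1 in R 4.3.3 (lmFit, eBayes, no covariate, no filter), tested on simulated data; Benjamini-Hochberg adjusted p under 0.05 was the threshold. Figures used Python 3.11.15 and matplotlib 3.10.9. The text names Ddit4, the 6 likest of the 43 other named genes (predicted, clone, microRNA, small nucleolar RNA, pseudogene and odorant or vomeronasal receptor names left out), and listed genes and markers with a named feature. The gene, the lists and the rules were chosen with earlier results of these data known. Alternatives covered normalization, filters on dim features, moderation, array weights, the mean, the measure of likeness and leaving out each array. The number of arrays limits the precision.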

Additional observations from a re-analysis of the deposited data

How the results depend on the processing

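The Ddit4 difference stayed negative and within 1 pooled SD of its main value in all 13 alternatives. It was -1.62 to -1.39 over the 7 that kept all arrays (quantile normalization, centring on the median or on the brightest features, linear means, group medians, array weights, the red cell covariate), and -1.81 to -1.23 with 1 array left out. As the groups do not overlap, leaving out or weighting arrays could not reverse it. The limma count at adjusted p under 0.05 was 0 in all 13 of its alternatives. The 33 features that differ at least as far as Ddit4 became 16 among features above the median level and 19 above the 25th percentile, since fewer features are counted, and 24 to 169 with 1 array left out, the most without fasted replicate 1 (169) and refed replicate 9 (94). Of the 6 likest genes, 4 to 6 stayed among the nearest 6 over the 4 alternatives with all arrays, with 4 under either other measure of likeness, and 4 to 6 with 1 array left out. Depp1 and Gadd45g were the 2 lost under the other measures and without fasted replicate 1, and Ms4a4a was lost without refed replicate 9. No paired analysis was possible because no replicate number occurs in both groups. With 3 arrays per group and names for 134 features, precision and the choice of genes to compare are both limited.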
